A study of Mus musculus with 8 samples.

Results

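Acetylated chromatin that appeared at the ends of protein-coding genes was examined in mouse embryonic stem cells given 4-hydroxytamoxifen (4OHT) for 2 h, set against untreated cells. The members are 828 regions with a peak of acetylated lysine 27 of histone H3 (H3K27ac) in both 4OHT libraries and in neither untreated library, which lie within 1 kb of either end of a RefSeq protein-coding gene. Such regions are termed gained, and regions with the opposite pattern lost. The 828 are part of 5130 gained regions, which make up 6.20% of the 82792 regions obtained by merging overlapping peaks of the 4 lists. Because the members were selected on the peak calls of these same libraries, every difference between 4OHT and untreated cells at them is given as a description, without a test.

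The cells were of the E14tg2a line, of 129SV background, and all of them, untreated cells included, stably carried cRAF-ErT2, a fusion of RAF kinase with the hormone-binding part of the oestrogen receptor, which 4OHT switches on to activate ERK. They were kept with serum, LIF and 2 uM of the GSK3 inhibitor Chir99021, and 24 h before treatment were moved to serum, LIF and 250 nM of the FGF receptor inhibitor PD173074. The treated group received 250 nM 4OHT for 2 h and the other group nothing, so the labels name no vehicle control, and effects of 4OHT itself cannot be told apart from those of ERK. Each group has clones a and b, which gives 2 libraries against 2, a design in which no exact permutation test can reach 0.05. The labels do not say whether the libraries came from separate cultures, and activation of ERK was not measured here.

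H3K27ac is laid down by the acetyltransferases p300 and CBP and marks active promoters and enhancers. At an active start site the nucleosome just over the start is commonly depleted, so that the mark flanks it, most heavily on the transcribed side. Many mammalian promoters lie in stretches rich in the dinucleotide CpG, called CpG islands, at which housekeeping genes and many developmental regulators start. ERK is known to phosphorylate factors such as ELK1, which switch on immediate-early genes within minutes, and then feedback inhibitors of the pathway; in stem cells ERK also favours exit from naive pluripotency.

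Promoters of 6 genes with a gained end region are shown because their regions overlap the 300 bases from 250 before to 50 after the RefSeq start, and because they span the base compositions found. Cdx2, Evx1 and Twist1 encode developmental transcription factors, Egr2 an immediate-early zinc finger factor, Dusp2 a MAP kinase phosphatase and Tnfsf11 the cytokine RANKL. All 6 had 0 bp of untreated peaks within 1 kb of the start in both clones. Capitals mark CpG dinucleotides, and the sequences are those of RefSeq on GRCm38.p6, written 5′ to 3′ on the strand of the gene. They span chr10:67535249-67535548 (Egr2, plus strand), chr12:33957421-33957720 (Twist1, plus strand), chr2:127335909-127336208 (Dusp2, plus strand), chr5:147307200-147307499 (Cdx2, minus strand), chr6:52313248-52313547 (Evx1, plus strand) and chr14:78307994-78308293 (Tnfsf11, minus strand).
Egr2: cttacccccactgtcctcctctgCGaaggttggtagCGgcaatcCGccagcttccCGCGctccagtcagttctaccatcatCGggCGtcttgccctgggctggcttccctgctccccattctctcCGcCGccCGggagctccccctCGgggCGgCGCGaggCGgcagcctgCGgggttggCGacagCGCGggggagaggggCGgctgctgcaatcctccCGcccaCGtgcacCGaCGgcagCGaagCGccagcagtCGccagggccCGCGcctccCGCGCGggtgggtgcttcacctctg
Twist1: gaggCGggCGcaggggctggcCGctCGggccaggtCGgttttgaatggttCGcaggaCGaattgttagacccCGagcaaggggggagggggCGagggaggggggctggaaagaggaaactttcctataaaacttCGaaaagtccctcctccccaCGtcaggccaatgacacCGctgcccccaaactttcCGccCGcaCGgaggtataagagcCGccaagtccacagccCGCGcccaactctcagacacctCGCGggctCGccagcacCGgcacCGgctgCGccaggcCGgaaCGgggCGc
Dusp2: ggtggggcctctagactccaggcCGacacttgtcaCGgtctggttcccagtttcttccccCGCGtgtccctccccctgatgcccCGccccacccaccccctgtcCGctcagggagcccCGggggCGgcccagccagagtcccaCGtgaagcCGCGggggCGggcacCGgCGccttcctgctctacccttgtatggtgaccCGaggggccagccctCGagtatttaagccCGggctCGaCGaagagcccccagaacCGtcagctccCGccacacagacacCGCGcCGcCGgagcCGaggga
Cdx2: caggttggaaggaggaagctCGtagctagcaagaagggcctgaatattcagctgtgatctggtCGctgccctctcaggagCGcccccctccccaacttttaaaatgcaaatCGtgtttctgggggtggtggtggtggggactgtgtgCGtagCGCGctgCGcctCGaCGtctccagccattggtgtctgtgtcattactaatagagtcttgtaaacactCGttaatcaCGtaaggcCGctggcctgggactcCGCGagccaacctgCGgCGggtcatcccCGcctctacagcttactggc
Evx1: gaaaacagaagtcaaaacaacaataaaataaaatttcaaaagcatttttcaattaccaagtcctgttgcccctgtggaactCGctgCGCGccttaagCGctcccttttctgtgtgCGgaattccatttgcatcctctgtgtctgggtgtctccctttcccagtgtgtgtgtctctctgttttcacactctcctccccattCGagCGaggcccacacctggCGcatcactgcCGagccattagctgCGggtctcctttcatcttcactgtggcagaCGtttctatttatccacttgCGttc
Tnfsf11: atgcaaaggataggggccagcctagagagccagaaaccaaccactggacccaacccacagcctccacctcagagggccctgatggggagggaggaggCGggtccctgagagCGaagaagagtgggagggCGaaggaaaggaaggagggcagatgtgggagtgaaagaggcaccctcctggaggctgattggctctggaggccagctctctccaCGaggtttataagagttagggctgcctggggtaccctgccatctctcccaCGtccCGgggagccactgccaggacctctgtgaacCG
The Egr2 promoter held 32 CpG, that of Twist1 27, that of Dusp2 26, that of Cdx2 18, that of Evx1 12 and that of Tnfsf11 7. The median over all 17491 promoters in the RefSeq table was 13 CpG. The promoters shown therefore range from CpG-dense to CpG-poor. The letters TATAAA stand in the Twist1 promoter on the printed strand and in that of Tnfsf11 on the opposite strand.

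The lists of peaks were of similar size in both groups. The 4OHT lists held 59170 peaks in clone a and 62764 in clone b, and the untreated lists 61203 and 63276. Read depth is not known, so a region without a peak may still carry the mark. In bulk chromatin, more cells carrying the mark and more mark per cell cannot be told apart. Peaks lay over all 10 embryonic stem cell markers in each of the 4 libraries. Of 8 fibroblast markers, 3 had a peak in each 4OHT library, against 2 in each untreated library, with summed lengths of 4.02 and 5.58 kb against 1.42 and 2.02 kb. The collagen genes Col1a2 and Col3a1, and Thy1, Prrx1 and Pdgfra, had none in any library. Of 7 markers of differentiated tissues, 1 had a peak in each library.

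Gained regions at gene ends outnumbered lost ones. Of 17541 merged regions within 1 kb of a gene end, 4.72% (828) were gained and 1.92% (337) lost, while 11414 were called in all 4 libraries. Over all 82792 merged regions the gained share was 6.20%, so gained regions were less frequent at gene ends than overall. Away from gene ends the order turned, with 4302 regions gained and 4848 lost. The 4OHT libraries also had more peaks at gene starts in general. Of 17491 starts with known strand, 52.1% in clone a and 53.1% in clone b had a peak within 1 kb after 4OHT, against 48.1% and 50.9% in untreated cells. The mean length covered there was 602 and 595 bp, against 534 and 543 bp. The part of this difference in the number of gained regions was not tested.

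Within clone a alone, 13.3% of regions at gene ends (2338) were called after 4OHT only, and within clone b 12% (2100). The 828 shared by both clones are 35.4% of the gained regions of clone a and 39.4% of those of clone b, so most gained regions of either clone were not gained in the other. Leaving out 4OHT clone a or 4OHT clone b gave 1867 and 1573 gained regions, and leaving out untreated clone b 1631, against lost counts of 650, 557 and 883. Without untreated clone a the counts were 1195 gained and 951 lost, which lie nearer to each other. Gained regions exceeded lost ones in each of these settings, but by a factor that depended on the library left out.

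The members touched 870 of 21883 genes (3.98%), while 340 genes (1.55%) had a lost end region and 11 genes had both. Of the members, 733 lay near a single gene, 93 near 2 genes and 2 near 3 genes. Most genes had 1 member, 51 had 2, and 2 genes had 3. Those 2 genes were Tmem233 and Fam171a2. At Tmem233, a membrane protein gene, the 3 regions lay side by side over the 3′ end, and the window of 1 kb on either side of that end held 1289 and 1097 bp of peaks after 4OHT, against 0 and 0 bp in untreated cells.

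The members were short and weak peaks. Their median width was 462 bp and they ranged from 211 to 4561 bp, with 77 of at least 1 kb and 5 of at least 2 kb. Regions called in all 4 libraries at gene ends had a median width of 1244 bp. The score of a peak is the authors' own value, of no stated scale, and was therefore turned into a percentile within its own list. Members had a median percentile of 33.7 in 4OHT clone a and 37.6 in 4OHT clone b, while regions of all 4 libraries at gene ends had 81.5 and 82.1. Short and weak peaks were not particular to the members. Lost regions at gene ends had a median width of 466 bp and median percentiles of 34.0 and 32.3 in untreated clones a and b. Gained regions away from gene ends had a median width of 539.5 bp and percentiles of 33.7 and 38.1 in 4OHT clones a and b. A total of 116 members (14.0%) were above the middle of both 4OHT lists, and 8 were above the 75th percentile in both. The percentiles of a member in the 2 clones correlated at r = 0.46 over the 828 regions, as a description.

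The 8 members that scored above the 75th percentile in both lists lay at Dnah1, Snai3, Snrnp70, 4931428F04Rik, Hs3st3b1, Ormdl3, Odaph and Bcdin3d. The one at Dnah1, which encodes a heavy chain of axonemal dynein, ranked highest, at percentiles of 93.4 and 94.4. It spans chr14:31324136-31325697, 194 bp from the start of the gene, with 1562 and 1539 bp of peaks in 4OHT clones a and b. The nearest untreated peak was 10.5 kb away. The region at Snai3, a zinc finger factor of the Snail family, covered one end of the gene at percentiles of 92.4 and 90.7, with 1802 and 1888 bp of peaks after 4OHT and its nearest untreated peak 13.9 kb away. At Snrnp70, which encodes a protein of the U1 spliceosomal particle, the longest member of all (4561 bp) lay over the 3′ end with percentiles of 81.5 and 83.0. The start of Snrnp70 had 1792 and 1766 bp of peaks within 1 kb after 4OHT, against 1716 and 1746 bp in untreated cells, so acetylation at its start was present in both groups.

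Where the strand of the gene was known, most members were at its start. Of 647 such members, 502 (77.6%) were nearest to a start and 145 to a 3′ end, and 181 members lay at genes whose strand was not in the promoter table. The share at a start was 63.4% among lost regions at gene ends and 90.9% among regions of all 4 libraries. Of the 502 members at starts, 103 (20.5%) covered the start base, 130 (25.9%) lay upstream and 269 (53.6%) downstream. Around these starts, counted per member, the share covered by a peak was highest at 300 bp into the gene. It was 68.1% there in 4OHT clone a and 64.9% in 4OHT clone b. At the start base itself it was 28.1% and 27.9% after 4OHT, against 6.18% and 7.37% in untreated cells. The highest share in untreated cells was 15.5% in clone a and 20.3% in clone b, also on the transcribed side.

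**Figure D1:**
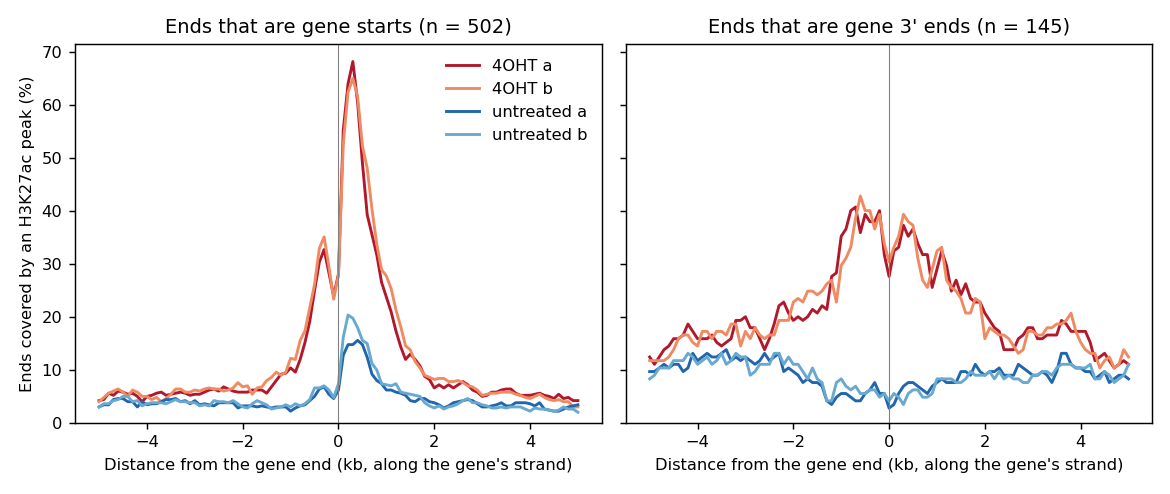
Share of ends covered by a peak (percent) against distance from the end along the gene (kb) for the 502 gained regions at gene starts and the 145 at 3′ ends, with 1 line per library, 4OHT and untreated, clones a and b. At starts the 4OHT lines reach 68.1% and 64.9% at 300 bp into the gene, with a dip just upstream of the start to 23.9% and 23.3% at 100 bp before it, and the untreated lines reach at most 20.3%; the members were chosen for this difference.

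At the 3′ ends of the 145 members there, again counted per member, the profile was flatter. The covered share was highest inside the gene, at 40.7% in 4OHT clone a (700 bp before the end) and 42.8% in 4OHT clone b (600 bp before it). At the end base it was 27.6% and 30.3% after 4OHT, against 2.76% and 4.14% in untreated cells. Members at 3′ ends had a median width of 553 bp, those at starts 449.5 bp, and 24 of the 3′ members were at least 1 kb wide. Among these was a region of 2205 bp at the 3′ end of Pou5f1, the gene of the pluripotency factor OCT4. That end had 1385 and 1269 bp of peaks within 1 kb after 4OHT, against 215 and 182 bp in untreated cells, while the Pou5f1 start was fully covered (2001 bp) in all 4 libraries.

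The 1 kb limit fell within a continuous range of distances. The members nearest inside it lay 996 bp from the Fyn start and 998 bp from the Shisa4 3′ end, with 225 and 207 bp of peaks at Fyn and 225 and 200 bp at Shisa4 in 4OHT clones a and b. The gained regions nearest outside it lay 1002 bp from the 3′ end of Tmem125, with 439 and 503 bp, and 1004 bp from the Hmx3 start, with 725 and 595 bp.

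The members differed in what surrounded them in untreated cells, and this split them into additions to an acetylated end and regions with no peak nearby. The nearest untreated peak was within 1 kb of 318 members (38.4%), 1 to 5 kb from 136 (16.4%) and more than 5 kb from 374 (45.2%). The median distance was 3.47 kb. Lost regions at gene ends lay closer to the nearest 4OHT peak, at a median of 0.712 kb, with 53.1% within 1 kb. A region called in all 4 libraries was within 5 kb of 337 members (40.7%). Widths were alike in these classes: members with no untreated peak within 5 kb had a median width of 468.5 bp and those within 1 kb of one 447.5 bp.

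**Figure D2:**
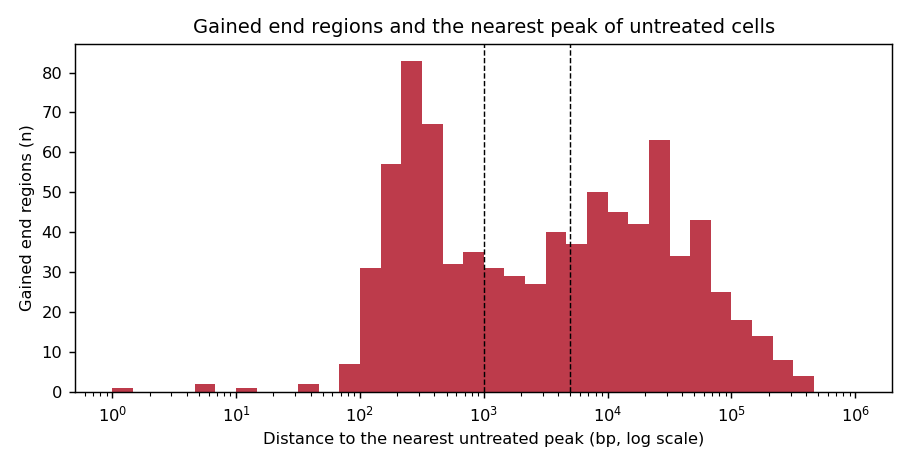
Number of gained regions at gene ends by distance to the nearest peak of untreated cells (bp, log axis), with dashed lines at 1 and 5 kb. Of the 828 regions 318 lie within 1 kb and 374 beyond 5 kb, and the median is 3.47 kb.

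Windows of 1 kb on either side of the end nearest to each member show the same mixture. They held on average 666.2 and 694.9 bp of peaks in 4OHT clones a and b, against 150.0 and 169.5 bp in the untreated ones. A peak was present in 821 and 825 of the 828 windows after 4OHT, against 217 and 252 in untreated cells. For 279 members (33.7%) at least 1 untreated library thus already had a peak in the window, and the member lay beside it. An end with several members is counted for each of them.

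Some members covered an annotated start that had no untreated peak within 5 kb, and there were 59 of these. Those with the highest scores were at Evx1, Tnfsf11, Pitpnm2, Galnt3, Ankrd63, Vash1, CK137956, Twist1, Rasl11a and Itga1. The start of CK137956 in the promoter table lies elsewhere in its interval, and the window there held 0 bp in all 4 libraries. At Galnt3, which encodes an enzyme of O-glycosylation, the window around the end held 1064 and 1253 bp after 4OHT, against 0 and 0 bp in untreated cells, and the nearest untreated peak was 25.8 kb away. At Itga1, the gene of an integrin chain that binds collagen, it held 808 and 1325 bp, against 0 and 0 bp. The start of Vash1, an angiogenesis inhibitor, had 525 and 805 bp, against 0 and 0 bp. All 3 windows were at 0 in both untreated clones and held peaks in both 4OHT clones, of unequal length between the clones.

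Gene lists of known ERK programmes and of cell lineages were read against the 3.98% of all protein-coding genes with a gained end region. With the members as defined, shares were highest in mesoderm and primitive streak genes (7 of 24, 29.2%), feedback regulators and ETS factors (5 of 31, 16.1%) and immediate-early genes (5 of 40, 12.5%). In these 3 lists 0 genes had a lost end region, against 1.55% of all genes. The same held for other lists, among them primitive endoderm, trophoblast, neural and housekeeping genes. At so low a share, small lists often hold none, so this does not set the 3 lists apart. The lists are small and were chosen with earlier results of these data known, so their counts are descriptions. Merging peaks within 1000 bp left 1 of 31 feedback and ETS genes (Dusp2) and 1 of 40 immediate-early genes (Fosl1), while mesoderm and streak genes stayed at 7 of 24. In the upper 50% of each list by score, feedback and ETS genes had 6.45% (Spred1 and Lgals1). They were below WNT targets (23.1%), formative genes (13.6%) and adhesion genes (13.5%). The untreated lists were shortened too in that setting, so its gained regions may hold a weaker untreated peak. Of its 710 regions 117 were members. Without 4OHT clone b, housekeeping genes (27.8%) and adhesion genes (24.3%) were above feedback genes (22.6%) and immediate-early genes (20%), and without 4OHT clone a trophoblast genes (26.3%) were above immediate-early genes (17.5%). The share over all genes moved as well, to 2.33% with merging and 3.56% in the upper 50% by score. It was 8.3% without 4OHT clone a and 7.23% without 4OHT clone b. With merging, feedback and ETS genes and immediate-early genes were thus near the share of all genes. The places below mesoderm and streak genes therefore depended on the setting.

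**Figure D3:**
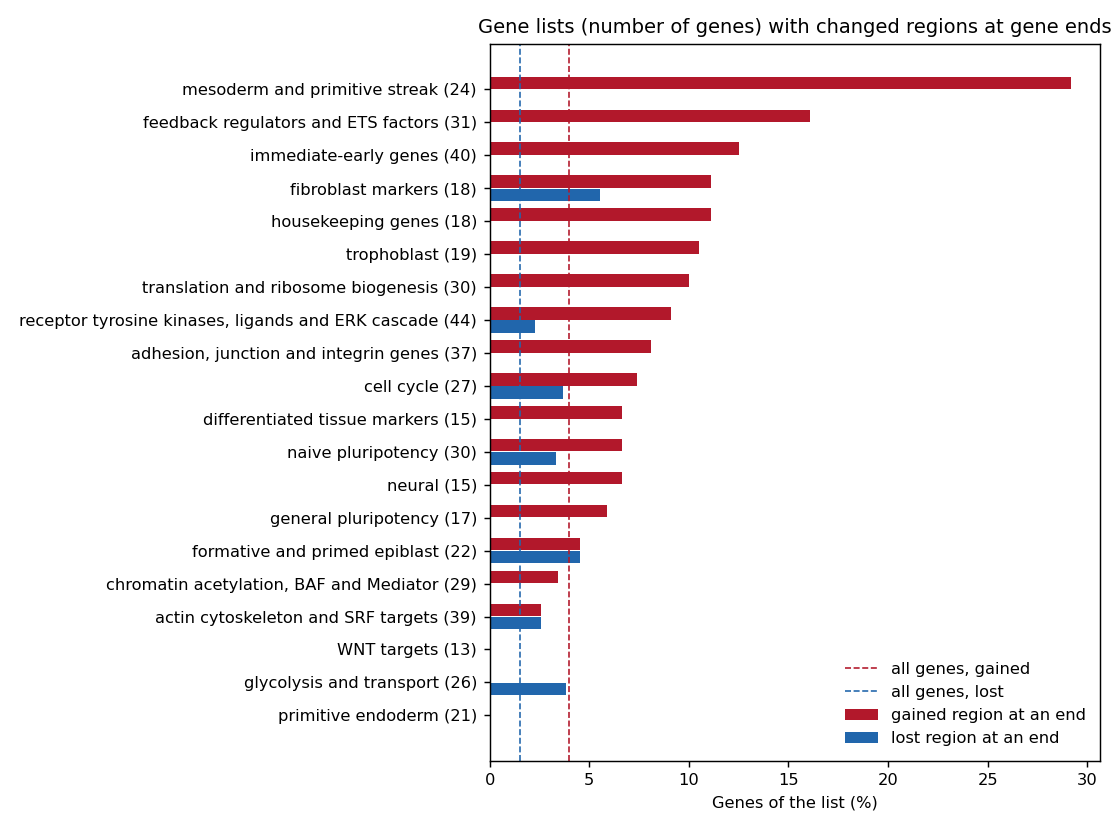
Share of genes (percent) in each list with a gained end region, beside the share with a lost one, with the share over all 21883 protein-coding genes (3.98% gained) as a line. Mesoderm and primitive streak genes stand at 29.2%, feedback and ETS genes at 16.1% and immediate-early genes at 12.5%; primitive endoderm genes, WNT targets and glycolysis genes are at 0 with the members as defined.

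The mesoderm and primitive streak genes were Cdx2, Evx1, Foxf1, Kdr, Mesp1, Mixl1 and Snai3, with 8 members between them. Of these 8, 6 had no untreated peak within 5 kb and 0 had one within 1 kb, and the other 2 had one 1 to 5 kb away. Evx1, a homeobox gene of the posterior streak, had a region of 1863 bp over its start (chr6:52312913-52314775). Peaks covered 1586 and 1085 bp of the window around that start in 4OHT clones a and b, against 0 and 0 bp in the untreated ones. Within 50 kb of Evx1 they covered 5.01 and 3.81 kb, against 0.34 and 0.616 kb.

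Cdx2, a homeobox gene needed in trophoblast and later in the posterior body, had a region of 1970 bp (chr5:147305244-147307213) that ends 36 bp into the gene from its start. The window around the start held 820 and 965 bp after 4OHT, against 0 and 0 bp. Over the gene and 50 kb on either side the covered length was 4.8 and 3.82 kb, against 0 and 0.798 kb. The groups did not overlap at Cdx2 or Evx1, which the choice of members fixes. Mesp1, an early regulator of cardiac mesoderm, had 515 and 324 bp at its start, against 0 and 0 bp, and Mixl1, a homeobox gene of the primitive streak, had 441 and 544 bp at one end, against 0 and 0 bp. Kdr, which encodes the VEGF receptor of blood and endothelial precursors, had 467 and 200 bp, against 0 and 0 bp, and its nearest untreated peak lay 44.4 kb away. Foxf1, a forkhead factor of lateral mesoderm, had 2 members at the same end, and the window held 735 and 896 bp after 4OHT, against 0 and 0 bp. The scores of this list ranged from the Snai3 region at the top to Mixl1, at percentiles of 7.4 and 22.3.

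Twist1, a basic helix-loop-helix factor of mesenchyme that stands in the fibroblast list, had 2 members over and before its start. Its window held 1525 and 1633 bp after 4OHT, against 0 and 0 bp, and the nearest untreated peak was 405 kb away. Twist1 accounts for the fibroblast marker that had a peak after 4OHT and none in untreated cells, while 5 of the 8 fibroblast markers were at 0 in every library. The part of fibroblast-like cells in the Twist1 signal was not tested.

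Among feedback regulators and ETS factors the members were at Dusp2, Epha2, Etv4, Il17rd and Lgals1, 6 regions in all. Dusp2 had a region of 715 bp over its start (chr2:127336020-127336734), with 497 and 715 bp after 4OHT, against 0 and 0 bp in untreated cells. Its whole locus of the gene and 50 kb on either side held 1.18 and 1.19 kb of peaks, against 0 and 0 kb, and the nearest untreated peak was 59.2 kb away. Etv4, an ETS factor induced by FGF signalling, had a region of 2573 bp that also lay within 1 kb of the 3′ end of Dhx8. The region covered one end of Etv4. The window there held 1760 and 1861 bp, against 0 and 0 bp. Lgals1, which encodes galectin-1, had 2 members at one end, where the window held 928 and 600 bp, against 0 and 0 bp. The windows at these ends of Dusp2, Etv4 and Lgals1 thus held no untreated peak. The other end of Etv4 held 1886 and 1895 bp after 4OHT, against 375 and 1270 bp in untreated cells. One of the Lgals1 members lay 228 bp from an untreated peak outside that window. Epha2 is an ephrin receptor gene and Il17rd encodes an inhibitor of FGF receptor signalling also called Sef, and their members lay 150 and 148 bp from an untreated peak. The Epha2 start had 1773 and 1215 bp after 4OHT, against 987 and 977 bp, and that of Il17rd 1619 and 1515 bp, against 1219 and 1177 bp.

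Immediate-early genes with a member were Arc, Egr2, Fosl1, Klf6 and Myc, with 7 regions, of which 6 lay within 1 kb of an untreated peak. Around the start of Egr2 used in the promoter table, peaks covered 1121 and 1199 bp after 4OHT, against 0 and 0 bp in untreated cells, although an untreated peak lay 250 bp beyond the member. The RefSeq interval of Egr2 begins further upstream, 832 bp from the member. Fosl1, which encodes the AP-1 subunit FRA1, was the exception in this list. Its region of 1613 bp (chr19:5447761-5449373) had percentiles of 69.2 and 80.8 and lay 7.23 kb from an untreated peak, and the window at that end held 877 and 938 bp, against 0 and 0 bp.

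At Arc, Myc and Klf6 the members extended ends that were already acetylated or lay behind them. The window at the Arc end held 1584 and 1350 bp after 4OHT, against 919 and 676 bp. Myc, the proto-oncogene, had 1 member at each end: the more acetylated end held 1712 and 1915 bp, against 944 and 1592 bp, and the other 317 and 137 bp, against 0 and 0 bp. For clone b the difference at the first Myc end was thus smaller than for clone a. Klf6 had both members at its 3′ end, where the window held 1391 and 952 bp, against 261 and 0 bp, while its start held 1759 and 1690 bp, against 1732 and 1739 bp.

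Well-known ERK targets without a member divided into ends that were acetylated throughout and ends where an untreated clone had a shorter peak. The Fos start held 1662 and 1963 bp after 4OHT, against 1832 and 2001 bp, and that of Dusp6, an ERK phosphatase, 1740 and 1827 bp, against 1784 and 1785 bp. One end of Egr1 held 2001 and 2001 bp, against 1726 and 2001 bp, and one end of Spry4, a Sprouty feedback inhibitor, 1759 and 1714 bp, against 1441 and 1548 bp. All 4 genes thus had an end with peaks in both untreated clones. At Egr3 one end held 1819 and 1374 bp, against 0 and 268 bp, and at Phlda1 one end held 1626 and 1835 bp, against 0 and 325 bp. Both windows held a peak in untreated clone b and none in untreated clone a. The other end of Phlda1 held 1672 and 1745 bp, against 270 and 1231 bp, so Phlda1 too had an end with peaks in both untreated clones.

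In the receptor tyrosine kinase and ERK cascade list 4 of 44 genes (9.09%) had a member and 1 (Igf1r) a lost end region. The kinase genes Braf and Map2k2 and the receptor gene Erbb2 had short members within 1 kb of an untreated peak. The Braf window held 1116 and 1098 bp after 4OHT, against 753 and 750 bp, that of Erbb2 733 and 1048 bp, against 385 and 616 bp, and that of Map2k2 1449 and 1366 bp, against 1402 and 1375 bp. At Map2k2 the difference between the groups was small beside the window and did not have the same sign in both clones. Fgfr3, an FGF receptor gene, had 324 and 703 bp at its start, against 0 and 0 bp, with the nearest untreated peak 26.2 kb away.

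**Figure D4:**
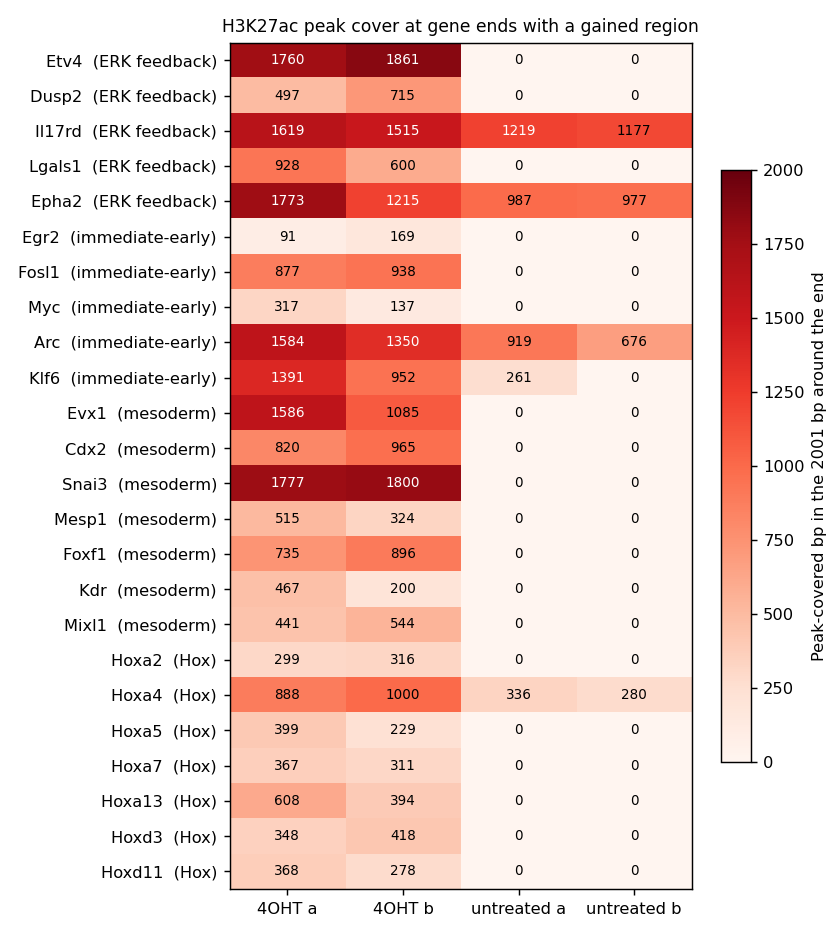
Covered length (bp) within 1 kb of a gene end for named members, with 1 column per library, 4OHT clones a and b left of untreated clones a and b, and the covered bp printed in each cell. Evx1, Cdx2, Dusp2 and Fosl1 are at 0 in both untreated columns, while Epha2, Il17rd and Arc hold peaks there; where a gene has several members, the one nearest to an end is drawn.

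The remaining lists held few genes with a member. Among adhesion genes 3 of 37 (8.11%) had one, namely Itga1 and the desmosomal genes Dsp and Pkp3. The window at the Dsp start held 1401 and 1489 bp after 4OHT, against 0 and 460 bp. Of 30 genes listed for naive pluripotency 2 had a member (6.67%), Pecam1 and Manba, of which Manba encodes a lysosomal mannosidase. Of 17 general pluripotency genes 1 had one (5.88%), Pou5f1, described above. Of the pluripotency genes without a member, the Nanog start held 1694 and 1787 bp after 4OHT, against 1869 and 1905 bp in untreated cells, and the Klf4 start 1828 and 1787 bp, against 1697 and 1777 bp. Esrrb had 0 bp at both ends of its RefSeq interval in all 4 libraries. One end of Actb, a housekeeping control, held 889 and 844 bp, against 762 and 860 bp. Of 27 cell cycle genes 2 had one (7.41%): Ccnd2, which encodes cyclin D2 and had 1224 and 1337 bp at the end with the members, against 0 and 0 bp, and Cdkn1c, with 97 and 165 bp, against 0 and 0 bp. Of 22 formative and primed epiblast genes 1 had a member, Pou3f1, whose window held 1292 and 1168 bp, against 310 and 0 bp. The count was 2 of 18 housekeeping genes (11.1%), at the 3′ side of Eef1a1 and Ppia, and 0 in primitive endoderm genes, WNT targets and glycolysis and transport genes. These zeros depended on the setting. In the upper 50% by score the untreated lists were shortened too, so gained regions there may hold a weaker untreated peak. WNT targets had 23.1% in that setting and glycolysis and transport genes 11.5%, against 3.56% of all genes. Without 4OHT clone a the shares were 23.1% and 15.4%, with 9.52% of primitive endoderm genes, against 8.3% of all genes. The housekeeping share was thus close to that of the immediate-early genes. Translation and ribosome biogenesis genes had 3 of 30 (10.0%), trophoblast genes 2 of 19 (10.5%, Cdx2 and Krt18) and fibroblast genes 2 of 18 (11.1%, Prrx2 and Twist1). Prrx2 also had a lost region at its 3′ end, where the window held 0 and 0 bp after 4OHT, against 263 and 244 bp in untreated cells. Neural genes had 1 of 15 (Hes5), genes of differentiated tissues 1 of 15, acetylation, BAF and Mediator genes 1 of 29 (Smarcd1) and actin and SRF target genes 1 of 39 (Krt18).

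Hox genes, chosen after their values were seen, had members at 8 of 39 genes (20.5%), against 3.98% of all genes. They had 0 lost end regions, against 1.55% of all genes, and so did the Fox and Sox genes. Their 8 members were 319 to 917 bp wide, 5 of them had no untreated peak within 5 kb, and those at Hoxa2, Hoxa4, Hoxa5, Hoxa7 and Hoxa13 lay with that of Evx1 within chr6:52164153-52314775. Hoxa6 was counted only through the Hoxa5 region, which lies near the Hoxa6 3′ end. The Hoxa6 start had 0 bp of peaks within 1 kb in all 4 libraries.

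Promoters at members were rich in CpG. Of the 870 genes, 675 had an entry in the RefSeq promoter table, and 530 promoters had a member within 1 kb of their start. These had a median of 22.5 CpG in 300 bases, and 70.6% of them were island-like, taken as more than 50% G and C and a ratio of observed to expected CpG above 0.6. Promoters with a region called in all 4 libraries had a median of 22 CpG (76.5% island-like, n = 8013). Promoters with a lost region had 15.5 (51.7%, n = 176), and those with no peak in any library 3 (8.93%, n = 7423). Promoters at gained regions thus had a median CpG count near that of the constantly acetylated ones. A promoter with both kinds of region was counted with the gained ones. The 316 gained promoters that had no untreated peak within 1 kb of the start also had a median of 22 CpG. Fewer of them were island-like (66.1%) than of the constantly acetylated ones (76.5%). The 71 promoters with a lost region and no 4OHT peak had a median of 8 CpG (28.2% island-like).

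**Figure D5:**
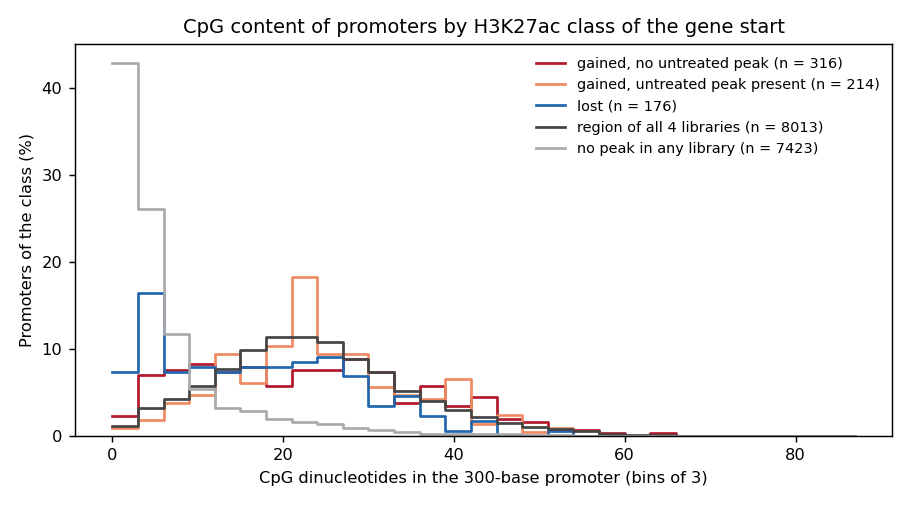
Share of promoters (percent) by number of CpG in the 300 bases around the RefSeq start, for promoters with a gained region, a lost region, a region of all 4 libraries, or no peak. Gained promoters, with or without an untreated peak, spread around medians of 22 and 23 CpG, close to the 22 of regions of all 4 libraries, against 3 where no library had a peak.

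Short motifs were counted on both strands of the same 300 bases. The letters GGGCGG, bound by SP and KLF factors, were in 71.3% of the 530 gained promoters, 59.1% of the 176 lost ones, 67.9% of those acetylated in all 4 libraries and 46.3% of all 17491. That motif itself contains a CpG, and the shares were not matched for base composition. The ETS core CCGGAAG, which also contains a CpG, was in 12.8%, against 3.41%, 21.7% and 11.9% in the same order. It was in 8.54% of gained promoters without an untreated peak and in 19.2% of those with one. The AP-1 site, TGAGTCA or its other form TGACTCA, was in 3.77% of gained promoters and 4.56% of all, the CArG box of SRF in 1.51% and 1.56%, and TATAAA in 6.98% and 13.3%. A match says only that the letters are present.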

How the data were processed

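H3K27ac ChIP-seq peak lists of 4 libraries (4OHT clones a and b, untreated clones a and b) were used; the 4 inputs were left out and are not analysed here. The submitters' processing notes name Bowtie2, bedtools, MACS2 and mm10. For tool versions, peak thresholds and the part of inputs in calling: not given in the sources used here. Peaks were called per library, since each deposited file belongs to one library. The score deposited by the authors has no stated scale and served only for ranks within a list. Read counts are lacking, so depth is unknown and no interval was computed for peak values.

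Peaks overlapping by 1 bp or more were merged, and a library was taken to call a region where one of its peaks overlapped it. Gene intervals came from RefSeq (GRCm38.p6, the assembly behind mm10) for 21883 protein-coding genes; the table has no exons, so exonic or intronic positions are not given. Strand was taken from the RefSeq promoter table, which matched 17491 genes. A gene start is the outermost 5′ base of the gene interval. Named genes were 12 fixed ERK, pluripotency and control genes, the 12 members highest by score, the 8 longest, up to 10 genes with several members, up to 5 genes per list, up to 10 starts without an untreated peak within 5 kb, and the regions nearest to the 1 kb limit; of these, the ones with the clearest roles are described. The members, lists and tests were chosen with earlier results of these data known. Promoters are 300 bases long. The calling code was tested on simulated data. Python 3.11.15, numpy 2.4.6, pandas 2.3.3, scipy 1.17.1 and matplotlib 3.10.9 were used. No test was run, because the rule used the calls of all libraries. Alternatives changed the score filter, list length, merging distance, covered share, distance to an end, gene ends used, window and promoters, and left out each library in turn.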

Additional observations from a re-analysis of the deposited data

How the results depend on the processing

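No paired analysis was possible because the results come from no test; the clone letters pair the treatments, and counts within each clone are given with the results. The count of 828 gained regions at gene ends became 471 with peaks within 1000 bp merged, 1323 with 50% of a region covered, 171 with the end base inside the region, 510 with no untreated peak within 1 kb and 522 at gene starts only. Without one library it was 1195 to 1867. In the upper 50% by score regions were called anew from shortened lists, and 117 of its 710 regions were among the 828. The share of gained regions lying at gene ends (16.1%) was 26.6% in the upper 50% by score, 18.3% with merging, 20.3% with 50% cover, 12.9% within 500 bp of an end, 22.3% within 2 kb, 3.33% with the end base inside, 14.6% with no untreated peak within 1 kb and 10.2% at starts only, and 13.2% to 20.7% without one library. The share at a start (77.6%) was 86.9% in the upper 50% by score and 73.0% to 82.4% without one library. The share with a region of all 4 libraries within 5 kb (40.7%) was 26.3% in the upper 50%, 15.9% with merging and 28.0% with 50% cover, and 39.1% to 52.8% without one library. Members whose end had an untreated peak in the window (33.7%) were 25.8%, 0.425% and 61.5% in those settings, and 26.2% to 43.9% without one library. The median width (462 bp) was 759, 572 and 650 bp in them, and 302 to 503 bp without one library. Merging left 2.5% of immediate-early genes (12.5%) and 3.23% of feedback and ETS genes (16.1%), which had 6.45% in the upper 50%. Without one library these were 15% to 20% and 16.1% to 29.0%, and mesoderm genes (29.2%) 29.2% to 45.8%. The share over all genes (3.98%) was 2.33% with merging, 3.56% in the upper 50% and 5.72% to 8.3% without one library. The median score percentile of members (34.3) reached 75.4 with lists shortened to their top 20000 peaks, where 19 of 679 gained end regions were absent from the whole untreated lists. Island-like promoters (70.6%) were 74.9% among those a gained region overlaps. The difference in covered window, 4OHT minus untreated (26.0% of the window), was 17.7% with 2 kb on either side. Several changes follow in part from the construction of the settings. Merging and the cover rule change which peaks make a region. The settings for distance, ends used and untreated peaks nearby narrow or widen the choice from the same gained regions. Leaving out a library removes a condition from the rule, and shortened lists keep only high-scoring peaks. How far this accounts for each change was not tested. Of 119 values of lists not led with, 107 stayed within the counting interval of the value reported, which is wide for lists this small. Of 78 values of all other results, 30 stayed within the limit set for them, so most of these moved. Those 78 include the gene lists led with, whose counting intervals were also wide and whose values mostly stayed. Most of the 30 came from these lists, so the remaining results moved more often than the count shows. Depth is unknown, so weak peaks near a calling threshold limit all counts.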

Other observations

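Changed regions farther from gene ends were counted near members. Of 4302 gained regions away from gene ends, 457 (10.6%) lay within 50 kb of a gained end region, against 151 of 4848 lost ones (3.11%). Near lost end regions the order turned: 73 gained regions (1.7%) and 212 lost ones (4.37%) lay within 50 kb. For comparison, 2086 gained regions (48.5%) and 1859 lost ones (38.3%) lay within 50 kb of end regions called in all 4 libraries, so a larger share of gained than of lost regions lay near such ends too. These regions come from the same libraries and calls, so they are no independent evidence. At Manba, a lysosomal mannosidase gene, 18 gained and 0 lost regions lay in the gene and 50 kb on either side, where peaks covered 45.3 and 39.2 kb after 4OHT, against 14.9 and 14.7 kb in untreated cells.

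Gene families, chosen after their values were seen, were read against the 3.98% of all 21883 genes with a gained end region. Members touched 5 of 44 Fox genes (11.4%), 8 of 94 potassium channel genes (8.51%) and 22 of 389 solute carrier genes (5.66%), the last near the share of all genes. They touched 8 of 397 Zfp genes (2.02%), 2 of 97 ribosomal protein genes (2.06%), 1 of 355 vomeronasal receptor genes (0.282%) and 0 of 1110 olfactory receptor genes. By chromosome, gained regions were 3.34% to 6.16% of regions at gene ends, leaving out chromosome Y with 5 such regions.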
